A study of Mus musculus with 4 samples.

Results

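E2F transcription factors and their DP partners decide whether genes for DNA synthesis and division are read. The family is described here in the TRAMP mouse model of prostate cancer. The members are E2f1 to E2f8, Tfdp1 and Tfdp2, found by their gene names in the deposited expression tables. All 10 were found among 24319 gene names, and all 10 passed the filter on low values that left 13162 genes for testing.

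Most E2F proteins bind DNA only as a pair with a DP protein, which Tfdp1 and Tfdp2 encode. E2f1, E2f2 and E2f3 are known as activators and are held in check by the retinoblastoma protein, while E2f4 and E2f5 mostly repress together with its relatives p107 and p130. E2f6 represses without pocket proteins, and the atypical E2f7 and E2f8 repress without a DP partner. SV40 large T antigen, the oncoprotein of the TRAMP transgene, is known to bind and inactivate the pocket proteins.

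RNA was sequenced from 2 TRAMP tumours and 2 normal prostates. The tumour mice were F1 males of C57BL/6 TRAMP sires and FVB dams, heterozygous for a transgene in which the rat probasin promoter drives SV40 T antigen. The labels give their age as 24 weeks and stage as late, and the protocols give 24 to 28 weeks. Normal prostates came from wild-type F1 males of the same 2 strains at 22 weeks. Rat probasin is a promoter of prostate epithelium, so the oncoprotein is made there and not in every cell of the tissue. Each normal RNA came from a single prostate, per the protocols. For the tumours separate animals are not stated outright, so a p-value reflects the variation among these 4 samples. The values deposited were FPKM, fragments counted per transcript length and library size, which can be set side by side between genes.

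The libraries held 1431957 and 1141314 implied fragments for tumour 1 and tumour 2, and 985509 and 1578847 for normal 1 and normal 2, read from the width of the Cufflinks confidence interval of each FPKM. Genes above 1% of a library held 8.52% and 3.61% of all FPKM in the tumours, against 51.2% and 53.0% in the normal prostates. Each library was therefore divided by its median-of-ratios factor, which moved the groups by 0.94 against each other on the log2 scale. All levels below are such scaled FPKM, and every interval is the Cufflinks one, which covers counting error within a library and not the spread between animals. Testing used limma on log2(scaled FPKM + 1), tumour minus normal, and p-values were adjusted by Benjamini-Hochberg across the 13162 genes, with 0.05 as threshold. Each fold below is that log2 fold change turned back to a fold of scaled FPKM + 1, so it is not the ratio of the mean levels. With 2 samples a group the smallest two-sided p of an exact permutation test is 0.33, so none was run.

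Among the 10 members, E2f1, E2f2, E2f7 and E2f8 rose in the tumours, 0 fell and 6 did not pass. Among all 13162 genes tested, 9.85% were called higher and 8.27% lower. At an unadjusted p under 0.05 by limma, 5 members were higher and 1 lower, where 2830 and 2412 of the 13162 genes were. By voom on implied fragments 2 members were higher and 0 lower, where 1057 genes were higher and 1001 lower. The 2 were E2f7 and E2f8 (adjusted p = 0.0244 and 0.0255 by voom), while E2f1 and E2f2 missed the threshold. E2f7 and E2f8 reached 1 FPKM in the tumours alone, so they could enter the test only as different genes. Of the other 8 members, 2 were called higher, against 4.35% called higher and 8.4% called lower among the 11137 genes with at least 1 FPKM in a library of each group. The groups did not overlap in 7 of the 10 members, 6 higher and 1 lower, where 71.1% of all genes tested showed no overlap, a share close to theirs. Without normal 1 or without normal 2 no call held, for members or for any other gene, and the spread came from the tumours alone. The log2 fold change was then 2.11 and 2.62 for E2f1 and 3.37 and 2.81 for E2f2. Without tumour 1, and with the tested genes kept, E2f1 and E2f2 missed the threshold (adjusted p = 0.103 and 0.0910), and they passed with the filter applied anew to those 3 libraries (0.00200 and 0.00379). E2f7 and E2f8 have no spread left without a tumour, being listed at 0 in both normal prostates, so no test without one bears on them.

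**Figure D1:**
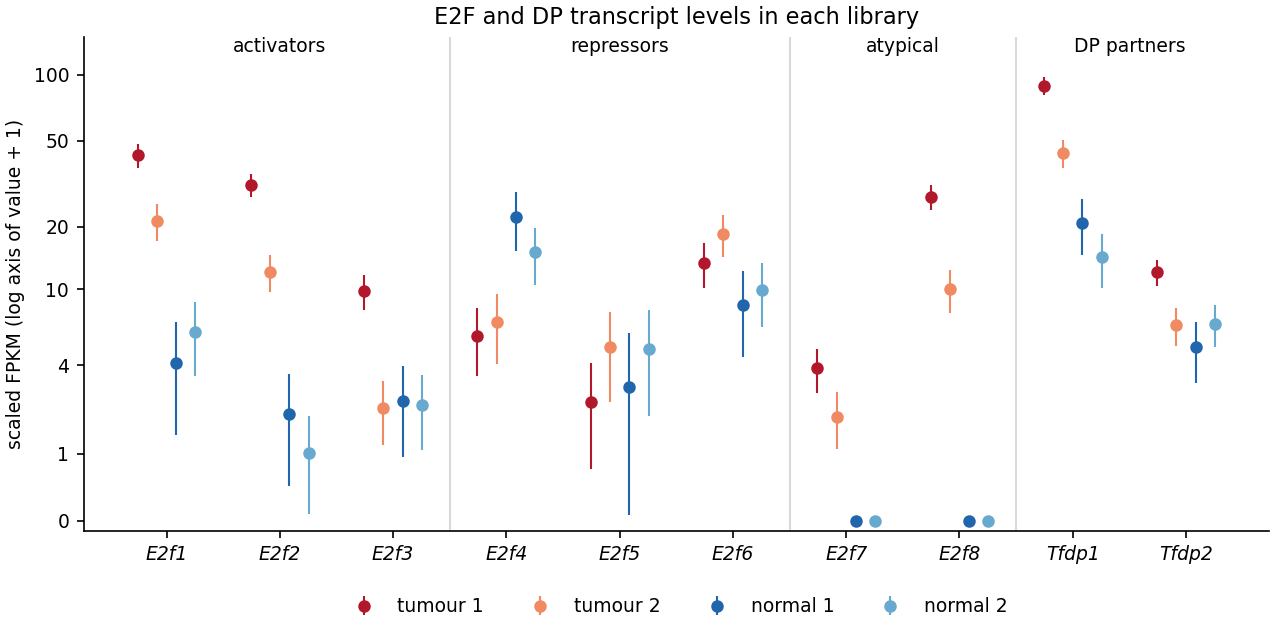
Scaled FPKM of each member in the 4 libraries, on a log axis of value + 1, with bars for the Cufflinks interval. Both tumours lie above both normal prostates for E2f1, E2f2, E2f6, E2f7, E2f8 and Tfdp1, and below them for E2f4. E2f7 and E2f8 are listed at 0 in both normal prostates.

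Of the activators, E2f1 and E2f2 rose and E2f3 did not pass. E2f1 (chromosome 2, 154559400 to 154569892, minus strand, mm10), the founding member of the family, had 43.0 and 21.3 scaled FPKM in the tumours, against 4.11 and 6.07 in the normal prostates. Both tumours lay above both normal prostates, with no contact between their intervals. The mean was 32.2 ± 15.3 in tumours and 5.09 ± 1.39 in normal prostates (SD, n = 2 each). In the fit, on scaled FPKM + 1, the rise was 5.22-fold (2.38 ± 0.47 on the log2 scale, SE, adjusted p = 0.0366). Behind these levels were 239 and 103 implied fragments in the tumours, against 9.4 and 21.9 in the normal prostates. Without the filter on low values the adjusted p was 0.0652, and by voom 0.0639.

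E2f2 (chromosome 4, 136172274 to 136196056, plus strand), the second activator, had 31.3 and 12.2 in the tumours, against 2.01 and 1.02 in the normal prostates. Its log2 fold change of 3.07 (SE 0.59, adjusted p = 0.0349) was an 8.37-fold rise, the largest of the 8 members with at least 1 FPKM in a library of each group. The normal values rested on 6.5 and 4.6 implied fragments and were thinly measured, while the tumours had 278.5 and 92.2. This call too failed with no filter (adjusted p = 0.0659) and by voom (0.0649).

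E2f3 (chromosome 13, 29906575 to 29986063, minus strand), the third activator, parted the tumours. It had 9.82 in tumour 1 and 2.22 in tumour 2, against 2.45 and 2.31 in the normal prostates. Tumour 1 stood 4.42 times above tumour 2, whose level lay below both normal values. The log2 fold change was 0.81 (SE 0.68, adjusted p = 0.418), at -0.015 without tumour 1 and 1.66 without tumour 2, where its adjusted p was 0.00939.

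Both atypical members rose. E2f8 (chromosome 7, 48866429 to 48881041, minus strand), which dampens the targets of the activators late in S phase, had 27.5 and 10.03 in the tumours and was listed at 0 in both normal prostates (adjusted p = 0.0230). The tumour values rested on 224 and 69.6 implied fragments. Its intervals of 23.9 to 31.2 in tumour 1 and 7.63 to 12.4 in tumour 2 did not meet. E2f7 (chromosome 10, 110745465 to 110787384, plus strand), its close relative and dimer partner, had 3.84 and 1.94 in the tumours and was likewise listed at 0 in both normal prostates (adjusted p = 0.0409).

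Every row in each library carried the status OK, so no estimate was flagged as failed. A value listed at 0 may still be a failed estimate, so no fold is given for these genes. Among the alternatives that kept all 4 libraries, the E2f8 call failed only with no filter on low values (adjusted p = 0.0525). The E2f7 call was lost there (0.0677), under quantile normalization (0.0955) and with the filter on mean FPKM (0.0683). Both genes reached 1 FPKM in the tumours alone, so neither their p-values nor the calls kept across settings are added support. Each also overlaps a gene on the opposite strand, Gm2788 for E2f8 and 1700020G17Rik for E2f7, as E2f3, E2f5 and Tfdp2 overlap Gm11365, 1810022K09Rik and Gm28924. The TruSeq V2 kit does not mark strand, so reads of such pairs cannot be told apart by strand where exons overlap. The overlaps are of whole gene spans, introns included, and overlap of exons was not checked.

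Of the repressor class, taken here as E2f4, E2f5 and E2f6, none passed. The atypical members, which also repress, are counted as a class of their own. E2f4 was the member whose tumour values lay below the normal ones. E2f4 (chromosome 8, 105297663 to 105305370, plus strand), the main partner of p107 and p130 in resting cells, had 5.77 and 6.79 in the tumours, against 22.1 and 15.1 in the normal prostates. Both tumour values lay below both normal ones and close to each other. The log2 fold change was -1.41 (SE 0.38, unadjusted p = 0.0142 from the limma fit, adjusted p = 0.0614). It was -0.56 with FPKM as deposited, 1.42 below the median of all genes tested there. Without tumour 1 or without tumour 2 it passed when the filter was applied anew (adjusted p = 0.0175 and 0.00446) and missed the threshold when the tested genes were kept (0.158 and 0.101).

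E2f6 (chromosome 12, 16810965 to 16826752, plus strand), a subunit of a Polycomb complex, had 13.4 and 18.5 in the tumours, against 8.36 and 9.92 in the normal prostates. The groups did not overlap, yet the difference was small (log2 fold change 0.73, SE 0.36, adjusted p = 0.195). With FPKM as deposited it was 1.6 and passed (adjusted p = 0.0381). That value lay 0.74 above the median of all genes tested there, against 0.66 as reported. E2f5 (chromosome 3, 14578671 to 14606309, plus strand), which pairs with p130, had 2.40 and 5.03 in the tumours, against 3.01 and 4.89 in the normal prostates. The groups overlapped and the log2 fold change was -0.10 (SE 0.50, adjusted p = 0.895), resting on 4.2 to 14.8 implied fragments a library.

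The DP partners did not pass. Tfdp1 (chromosome 8, 13338751 to 13378448, plus strand), which encodes DP1, had 89.5 and 43.9 in the tumours, against 20.8 and 14.3 in the normal prostates. It was the highest member in both tumours, at a level above that of 95.8% and 91.7% of genes above 0 there, against 75% and 68.1% in the normal prostates. The log2 fold change of 1.80 (SE 0.45) had an adjusted p of 0.0539, just outside the threshold. It passed with FPKM as deposited (2.71, adjusted p = 0.0225) and under quantile normalization (2.08, 0.0482). Scaling each library to its FPKM total less the genes above 1% also gave a pass (2.44, 0.0308). As deposited and with that total, the median of all genes tested was 0.86 and 0.62. Under the other 6 of the 9 alternatives that kept all libraries Tfdp1 missed the threshold (adjusted p of 0.0561 to 0.0871). Tfdp2 (chromosome 9, 96196275 to 96323646, plus strand), which encodes the relative DP2, had 12.1 and 6.57 in the tumours, against 5.02 and 6.65 in the normal prostates. Tumour 2 fell between the normal values, and the log2 fold change was 0.55 (SE 0.46, adjusted p = 0.407).

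The order of the levels differed between the groups. In tumour 1 Tfdp1 came first, followed by E2f1, E2f2 and E2f8, with E2f4 eighth. Tumour 2 had the order Tfdp1, E2f1, E2f6, E2f2 and E2f8, with E2f4 sixth. In both normal prostates the order was the same throughout, with E2f4, Tfdp1, E2f6, Tfdp2 and E2f1 at the top. Neighbours in these orders mostly had overlapping intervals, including E2f4 and Tfdp1 in the normal prostates and E2f1 and E2f6 in tumour 2, so their order is not settled within a library. Tfdp1 stood clear of the next member in both tumours.

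Ratios within a library do not depend on scaling between libraries. E2f1 stood at 7.45 and 3.14 times E2f4 in the tumours, against 0.186 and 0.401 times in the normal prostates. Summed over their members, the activators stood at 3.89 and 1.18 times the repressors in the tumours, against 0.256 and 0.314 times in the normal prostates. The repressor sum is of E2f4, E2f5 and E2f6 and leaves out the atypical members, which also repress. In the tumours the activators summed to 84.1 and 35.7, the repressors to 21.6 and 30.4 and the atypical members to 31.4 and 12.0. The activators held 61.4% and 45.8% of the summed FPKM of E2f1 to E2f8 in the tumours, against 20.4% and 23.9% in the normal prostates. The repressors held 15.8% and 38.9% in the tumours, against 79.6% and 76.1%, and the atypical members 22.9% and 15.3%, against 0%. The DP genes kept a similar weight, at 0.741 and 0.647 of the summed E2F level in the tumours and 0.614 and 0.534 in the normal prostates. Tfdp1 stood at 7.41 and 6.68 times Tfdp2 in the tumours, against 4.14 and 2.16 times in the normal prostates. These sums are descriptions with 2 libraries a group and no test.

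**Figure D2:**
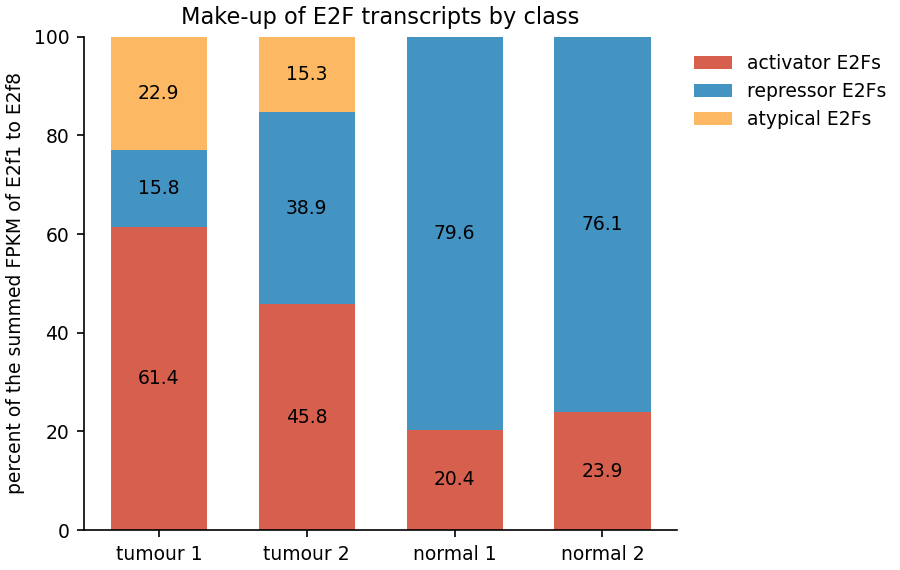
Share of the summed FPKM of E2f1 to E2f8 held by activator, repressor and atypical members in each library, in percent. Activators held 61.4% and 45.8% in the tumours and 20.4% and 23.9% in the normal prostates.

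Tumour 1 had more of most members than tumour 2. In 7 of the 10 members tumour 1 was higher, by 1.84 to 4.42 times, while E2f4, E2f5 and E2f6 were higher in tumour 2. The intervals of the tumours did not meet for E2f1, E2f2, E2f3, E2f8, Tfdp1 and Tfdp2. Among all genes tested 52.4% were higher in tumour 1. The S phase targets listed below had a median ratio of tumour 1 to tumour 2 of 2.08 and the G2 and M phase targets of 2.17, close to E2f1 at 2.01.

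Cell type markers also moved with the groups. The 8 neuroendocrine markers summed to 620 and 881 in the tumours, against 0.408 and 0.914 in the normal prostates, where 7 and 5 of them were at 0. The 7 luminal markers summed to 621 and 1767 in the tumours, against 8989.7 and 8649, and Pbsn and Spdef were at 0 in tumour 1. Pbsn alone made up most of the normal sums, and the other 6 luminal markers summed to 621 and 1753 in the tumours, against 1968 and 2369. Cd24a went the other way, with 305 and 686, against 163 and 188, and Krt8 had 0.258 and 438, against 178 and 191. The 6 basal markers summed to 12.1 and 39.1, against 81.9 and 81.1, with Trp63 at 0 in both tumours, while Dst (9.64 and 10.02, against 7.99 and 9.44) and Ngfr (2.45 and 4.54, against 1.16 and 0.590) went the other way and did not pass. Smooth muscle, with 6 markers, summed to 3.86 and 113 in the tumours, against 631 and 586. Fibroblast markers, 6 in number, summed to 50.4 and 376, against 123 and 99.0. Without Dcn, which made up most of the normal sums, they came to 44.9 and 265, against 18.8 and 14.8, so tumour 1 then lay above the normal prostates. Endothelial markers, also 6, summed to 1.56 and 38.5, against 7.42 and 3.95. The 6 macrophage markers summed to 113 and 269, against 6.34 and 5.85, and without Lyz2 to 18.6 and 62.3, against 6.34 and 4.01. Of these, Adgre1 (1.36 in tumour 1, against 2.75 and 1.45) and Csf1r (0.787, against 3.04 and 1.20) were lower in tumour 1 than in both normal prostates and did not pass. The T cell list, with 7 of its 8 genes in the tables, stayed at 3.05 or less and the 5 B cell markers at 0.483 or less in every library, with Cd79a, Cd79b and Ms4a1 at 0 in all 4. Tissue RNA cannot tell fewer cells of a type from less RNA per cell, and the part of cell make-up in the E2F differences was not tested.

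The pocket proteins, which bind and silence E2Fs, did not move as a group. Rb1 had 15.2 and 14.3 in the tumours, against 4.84 and 4.28 in the normal prostates, a 2.84-fold rise (1.5 ± 0.36 on the log2 scale, SE, adjusted p = 0.0498). That call sat at the threshold and was lost under 5 of 9 alternatives that kept all libraries. Rbl1, which encodes p107 and is itself an E2F target, had 13.3 and 8.77, against 3.10 and 0.871, a difference of 2.1 ± 0.56 on the log2 scale (SE, adjusted p = 0.0612). Rbl2, which encodes p130, the pocket protein of resting cells, had 3.69 and 7.41, against 11.8 and 14.96, a difference of -1.18 ± 0.46 on the log2 scale (SE, adjusted p = 0.125). Rbl1 thus stood at 3.61 and 1.18 times Rbl2 in the tumours, against 0.264 and 0.0582 times in the normal prostates. Rb1 overlaps Rcbtb2 and Lpar6, and Rbl2 overlaps Aktip, on the opposite strand.

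Most listed targets of the family rose. Of 20 S phase targets 17 rose, 0 fell and 3 did not pass, where 9.85% of all genes tested were called higher and 8.27% lower. Their median log2 fold change was 3.63, against 0.07 over all genes tested. Over the 14 with at least 1 FPKM in a library of each group, 12 rose and the median was 3.73. Over all such genes 4.35% were called higher and the median was -0.14. Without tumour 1, 13 of the 14 that then passed the filter were called, but 5 of the 20 when the tested genes were kept, and without either normal prostate 0 were. Mcm3, a subunit of the replicative helicase, had 66.0 and 48.5 in the tumours, against 1.73 and 0.705 in the normal prostates (log2 fold change 4.74, SE 0.43, adjusted p = 0.0195). Mcm6, of the same ring, had 105 and 83.8, against 4.49 and 2.34, a rise of 4.47 ± 0.39 on the log2 scale (SE, adjusted p = 0.0195). Cdc45, which joins the ring at origins, had 48.2 and 17.4 in the tumours and was listed at 0 in both normal prostates (adjusted p = 0.0208), so it passed the filter only through the tumours. Orc1, Tyms and Gmnn did not pass. With the 1 gene listed at 0 in both normal prostates left out, the median was 3.55.

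All 16 genes of the G2 and M phase list, which are governed by B-MYB and FOXM1 as well as E2F, rose, with a median log2 fold change of 4.67. Over all genes tested 9.85% were called higher and the median was 0.07. Leaving out the 3 genes listed at 0 in both normal prostates gave a median of 4.58. Of the 16, 7 had at least 1 FPKM in a library of each group and all 7 rose, where 4.35% of all such genes were called higher. Without tumour 1, the 7 that then passed the filter were called, but 6 of the 16 when the tested genes were kept, 3 of them listed at 0 in both normal prostates, and without either normal prostate 0 were. The 3 largest rises, named next, are not among the 7: each reached 1 FPKM in the tumours alone and could enter the test only as a higher gene, so their p-values are no added support. Ccna2, which encodes cyclin A2, had 130 and 46.8 in the tumours, against 1.07 and 0.966 in the normal prostates (log2 fold change 5.30, SE 0.57, adjusted p = 0.0195). The APC/C activator Cdc20 had 76.4 and 40.3 in the tumours, against 1.18 in normal 1 and 0 in normal 2 (adjusted p = 0.0195). The spindle gene Tpx2 had 68.0 and 28.9 in the tumours, against 0.705 in normal 1 and 0 in normal 2 (adjusted p = 0.0203).

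MuvB, the core of the DREAM complex that E2f4 joins, and its later partners showed 4 rises, 0 falls and 3 genes that did not pass among 7. All 7 had at least 1 FPKM in a library of each group. Among all such genes 4.35% were called higher and the median log2 fold change was -0.14. Foxm1, the mitotic forkhead factor, had 54.8 and 16.3 in the tumours, against 1.34 and 0.606 in the normal prostates (log2 fold change 4.0, SE 0.68, adjusted p = 0.0289). Mybl2, which encodes B-MYB, had 45.1 and 13.6, against 1.33 and 2.52, a 9.06-fold rise (adjusted p = 0.0406). Lin9, a MuvB subunit, had 16.3 and 15.5, against 2.83 and 1.49, a 5.48-fold rise (adjusted p = 0.0302). The median of the list was 2.07, and without tumour 1 4 of the 7 were called with the filter applied anew and 0 when the tested genes were kept. Foxm1 overlaps Tex52 on its own strand, and Cdc45 and Cdc20 overlap Ufd1 and Elovl1 on the other.

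**Figure D3:**
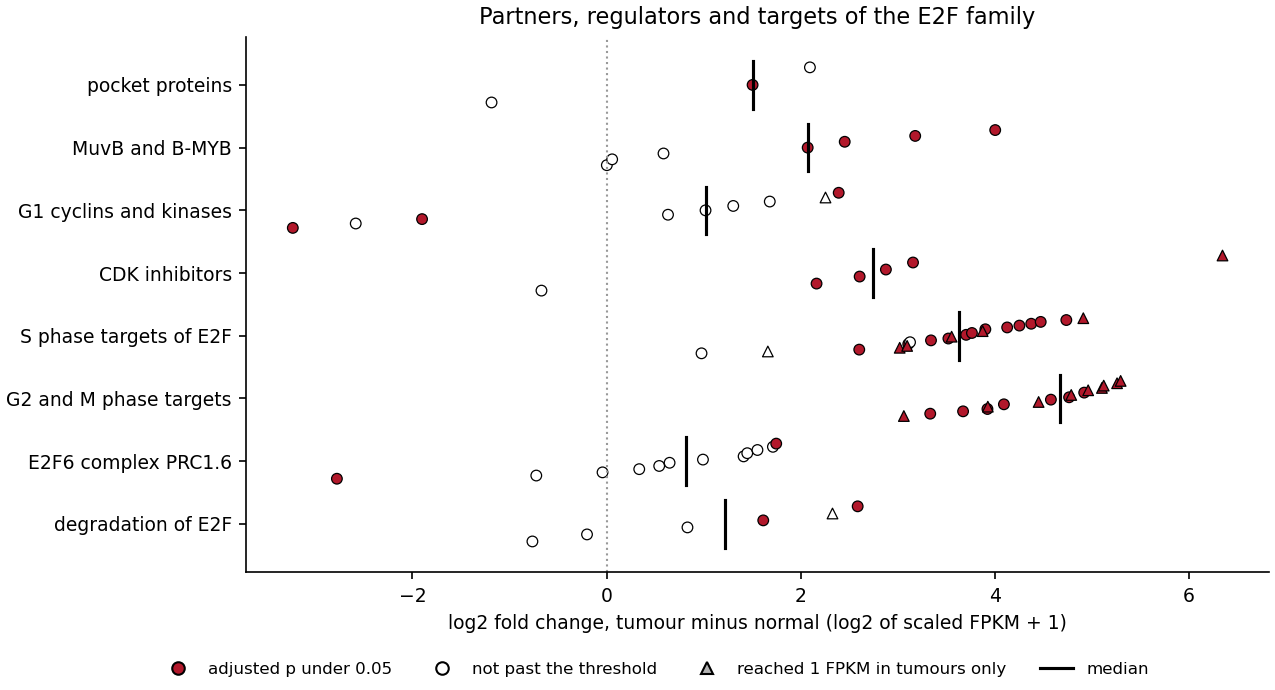
Log2 fold change, tumour minus normal, of each tested gene in 8 lists of partners, regulators and targets. Filled points passed an adjusted p of 0.05, triangles reached 1 FPKM in the tumours only, and vertical bars are medians. The S phase and the G2 and M phase targets lie to the right of 0, with medians of 3.63 and 4.67.

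Upstream of the pocket proteins, few genes were called. Of 9 G1 cyclins, kinases and activators, 1 rose, 2 fell and 6 did not pass, with a median of 1.02. Among all genes tested 9.85% were called higher and 8.27% lower. The 1 rise is near that share, and the 2 falls are few genes. Ccne1 (adjusted p = 0.126) and Ccnd1 (0.0597) did not pass. Without tumour 1, 2 were called higher and 3 lower with the filter applied anew, but 2 higher and 0 lower when the tested genes were kept. Ccnd3, a D cyclin that starts pocket protein phosphorylation, had 9.53 and 14.1 in the tumours, against 103 and 134 in the normal prostates (log2 fold change -3.23, SE 0.33, adjusted p = 0.0195). Ccnd2, another D cyclin, fell by 1.90 on the log2 scale (adjusted p = 0.0409), a call lost under 5 of 9 alternatives that kept all libraries. Ccne2, a cyclin E gene and E2F target, had 14.8 and 8.01, against 1.32 and 1.23 (log2 fold change 2.39, adjusted p = 0.0358). Ccne2 stood at 1.55 and 0.567 times Ccnd3 in the tumours, against 0.0128 and 0.00915 times in the normal prostates.

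Most CDK inhibitors, which restrain these kinases, rose. Of 7 genes, 6 were tested, 5 rose, 0 fell and 1 did not pass, with a median of 2.74 (2.61 without the gene listed at 0 in both normal prostates). Over the 5 with at least 1 FPKM in a library of each group, 4 rose and the median was 2.61. Among all such genes 4.35% were called higher and the median was -0.14. Cdkn2a, which encodes p16INK4a and ARF, had 88.7 and 72.4 in the tumours and was listed at 0 in both normal prostates (adjusted p = 0.0183). It passed the filter only through the tumours, so its p-value is no added support. Cdkn2d, which encodes p19INK4d, had 104 and 49.6, against 8.72 and 5.90 (log2 fold change 3.16, adjusted p = 0.0248). Cdkn1b, which encodes p27, had 95.7 and 61.7, against 11.1 and 8.30, a 7.35-fold rise (adjusted p = 0.0210). Without tumour 1, 4 of the 5 that then passed the filter were called, but, with the tested genes kept, only Cdkn2a, which has no spread among the normal prostates.

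In PRC1.6, the complex that E2f6 joins, 1 of 12 subunits rose, 1 fell and 10 did not pass, with a median of 0.82. These counts are near the background of 9.85% called higher and 8.27% lower and show nothing particular to the complex. The deacetylase Hdac2 rose 3.36-fold (adjusted p = 0.0496), a call lost under 6 of 9 alternatives that kept all libraries. The ubiquitin ligase Ring1 had 2.71 and 6.63 in the tumours, against 26.4 and 47.5 in the normal prostates (log2 fold change -2.78, SE 0.53, adjusted p = 0.0347). The 8 germline genes that E2f6 is known to silence were too low to test. Their summed level was 0.471 and 0.770 in the tumours, against 2.02 and 0 in the normal prostates, and Slc25a31, Tuba3a, Tuba3b and Hormad1 were at 0 in every library. Of 6 genes for the breakdown of E2F proteins 2 rose and 4 did not pass. These were Ccnf, which encodes cyclin F (6.01-fold, adjusted p = 0.0494, lost under 7 of 9 alternatives), and Cdc27, an APC/C subunit (3.06-fold, adjusted p = 0.0439).

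Over the 4 libraries, the genes nearest to E2f8 by Euclidean distance of centred log2 values were Nsg1 (0.0705), Dsn1 (0.0761) and Timeless (0.125). Nsg1 encodes a neuronal endosome protein, Dsn1 a kinetochore subunit and Timeless a replication fork protein. Timeless had 24.7 and 9.50 in the tumours and was listed at 0 in both normal prostates. Nearest to E2f2 were Tmem179 (0.111), Wdhd1 (0.124), which encodes a replisome adaptor, and Gm5607 (0.127). With 4 libraries many genes share such a pattern.

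Promoter windows, RefSeq sequence of GRCm38.p6 from 250 bases before to 50 after a gene's start, were searched on both strands for 4 spellings of the E2F consensus, TTTCCCGC, TTTGGCGC, TTTCGCGC and TTTGCCGC, and for the CHR element TTTGAA, the letters bound by MuvB. Of 32851 windows, 2.26% held an E2F spelling and 17.9% a CHR. Counted per gene name, it was 2.61% for E2F and 20.2% for the CHR. Of the 8 members with a window, 4 held an E2F spelling (E2f2, E2f3, E2f7 and Tfdp1) and 3 a CHR (E2f2, E2f3 and E2f8). The E2f2 CHR lies in a second window, at a start 8508 bases inside the gene, and not in the window printed below. Among the S phase targets 9 of 17 genes with a window held an E2F spelling, and among the G2 and M phase targets 9 of 13 held a CHR and 1 an E2F spelling. The E2f1 window begins at a start 466 bases inside the deposited gene and held neither.

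Windows of 3 of the 4 members that rose are printed 5′ to 3′ on the gene's strand, with matches in capitals, since they show the E2F and CHR letters near the start. In E2f2 (chr4:136172024-136172323, plus strand) TTTGGCGC lies 40 bases into the transcript. In E2f7 (chr10:110745189-110745488, plus strand) TTTCCCGC lies on the other strand, so its reverse complement is in capitals, 198 bases before the start. In E2f8 (chr7:48881547-48881846, minus strand) TTTGAA likewise lies on the other strand, 20 bases before a start that is 555 bases upstream of the deposited 5′ end.
E2f2: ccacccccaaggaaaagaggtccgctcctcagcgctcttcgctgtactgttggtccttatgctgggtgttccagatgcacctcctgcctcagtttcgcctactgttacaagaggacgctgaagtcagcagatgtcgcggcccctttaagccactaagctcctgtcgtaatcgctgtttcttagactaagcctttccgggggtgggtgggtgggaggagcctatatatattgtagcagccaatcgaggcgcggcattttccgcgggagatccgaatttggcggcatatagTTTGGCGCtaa
E2f7: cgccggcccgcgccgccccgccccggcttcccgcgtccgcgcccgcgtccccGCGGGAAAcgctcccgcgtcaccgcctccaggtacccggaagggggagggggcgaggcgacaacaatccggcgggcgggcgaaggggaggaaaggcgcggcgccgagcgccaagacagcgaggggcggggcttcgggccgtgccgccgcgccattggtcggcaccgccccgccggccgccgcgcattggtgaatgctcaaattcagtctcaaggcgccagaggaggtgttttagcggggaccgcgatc
E2f8: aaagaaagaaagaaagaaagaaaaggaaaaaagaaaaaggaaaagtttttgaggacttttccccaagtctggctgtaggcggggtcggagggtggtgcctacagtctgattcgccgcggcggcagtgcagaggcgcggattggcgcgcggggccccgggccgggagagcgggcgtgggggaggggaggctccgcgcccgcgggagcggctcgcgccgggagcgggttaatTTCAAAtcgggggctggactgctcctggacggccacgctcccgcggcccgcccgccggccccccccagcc
A match is a description of letters and no binding was measured.

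**Figure D4:**
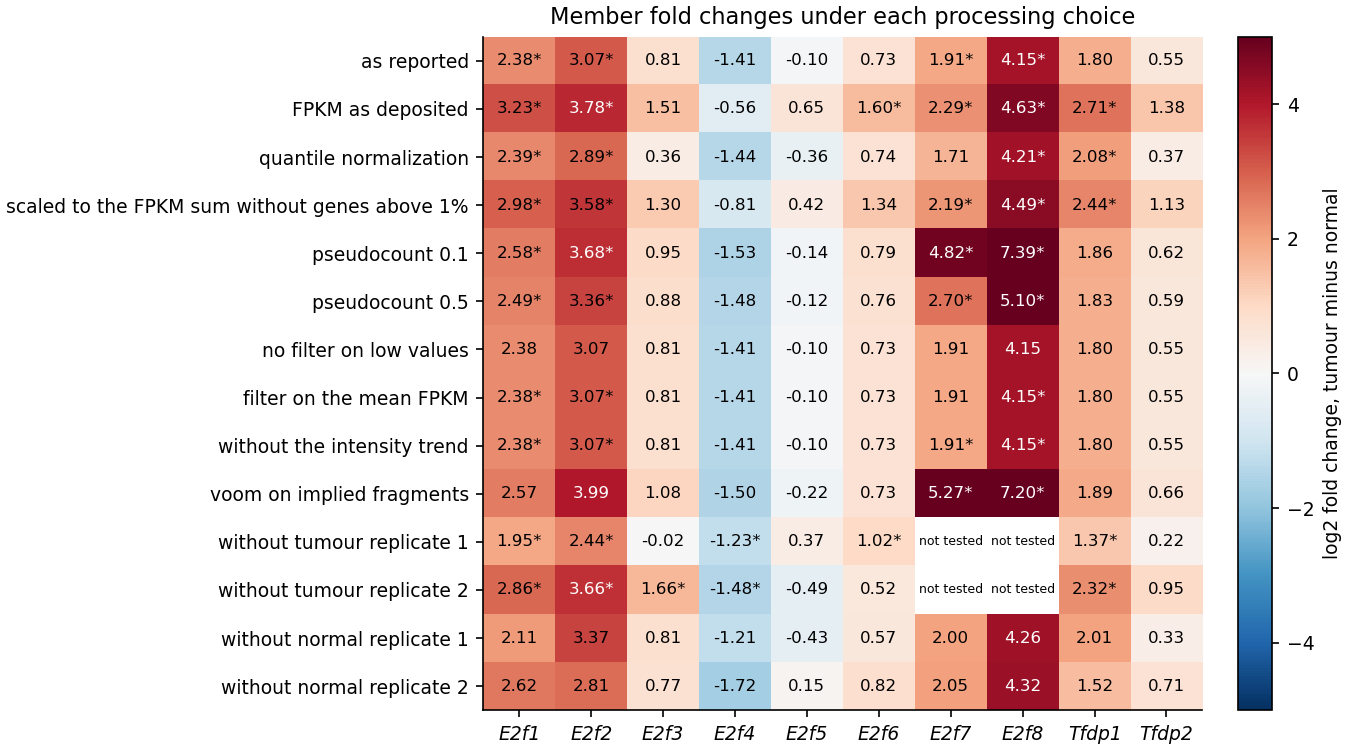
Log2 fold change, tumour minus normal, of each member (columns) under the reported setting and the alternatives (rows), with an asterisk where the adjusted p was under 0.05. The fits without a library that kept the tested genes fixed are not drawn. E2f1, E2f2, E2f6, E2f7, E2f8, Tfdp1 and Tfdp2 are positive and E2f4 negative in every fit shown, while E2f3 and E2f5 change sign.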

How the data were processed

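RNA-seq libraries of 2 TRAMP tumours and 2 normal prostates were analysed. The authors deposited 1 Cufflinks gene table per library with FPKM and its confidence bounds, per the file headers. Per the submitters' processing notes, the tools were Cuffdiff 2.1.1, Cufflinks 2.1.1, TopHat2 2.0.8 and Trim Galore, and the build was GRCm38 (mm10). The sources used here do not give settings or annotation. Of 24883 rows, 27 with names turned into dates were left out and 817 rows of 280 repeated names were summed. The start of a deposited locus counts from 0 and was raised by 1.

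Implied fragments took the interval as 2 Poisson standard deviations on each side, and fall short where isoforms are uncertain. Factors (1.34 and 1.50 for tumours, 0.793 and 0.689 for normal prostates) came from 11469 genes above 0 in all libraries. Genes reaching 1 FPKM as deposited in 2 or more libraries were tested with limma 3.58.1 (R 4.3.3) with an intensity trend, on log2(scaled FPKM + 1), which understates changes of low genes. The prior added 2.85 degrees of freedom to the residual 2. The fit was tested on simulated data. Python 3.11.15, pandas 2.3.3, numpy 2.4.6 and matplotlib 3.10.9 were used.

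Members, lists and tests were chosen with earlier results of these data known. Named are all 10 members, the 3 pocket proteins, the 3 largest called rises and falls of each list, and the 3 nearest genes of the 2 members with the largest fold change. Alternatives were other scalings, pseudocounts of 0.1 and 0.5, other filters, no trend, voom and leaving out each library. Those keeping the tested genes fixed without a library, and the counts over genes at 1 FPKM in each group, were chosen after seeing the data. Some cell type markers are not reported here.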

Additional observations from a re-analysis of the deposited data

How the results depend on the processing

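No paired analysis was possible because the labels give no replicate numbers that tie a tumour to a normal prostate. All genes split into 1296 higher and 1088 lower (54.4% higher), with FPKM as deposited 3681 and 427 (89.6%), and with each library scaled to its FPKM total less the genes above 1% 2537 and 554 (82.1%). With FPKM as deposited the 9 pathway lists had 1 gene called lower in place of 3. Without the filter on low values 245 genes were higher and 249 lower, 0 members were called by limma, and the pathway lists had 20 higher and 1 lower, against 47 and 3. At an unadjusted p under 0.05 by limma, 5 members were higher and 1 lower there, where 2846 and 2437 of 17072 genes were. By voom on implied fragments 2 members were higher, E2f7 and E2f8, which reached 1 FPKM in the tumours alone. Over genes with at least 1 FPKM in a library of each group, 485 genes and 2 members were higher. Leaving out 1 library gave 0 to 2170 genes higher and 0 to 3405 lower, 0 to 5 members higher and 0 to 1 lower, and 0 to 47 pathway genes higher and 0 to 7 lower. The lowest values belong to fits without a normal library, where the spread comes from the tumours alone and the lone normal sample is taken to share it, and the same holds for a lone tumour. With the tested genes kept, there were 460 genes lower and 15 pathway genes higher without tumour 1, and 1888 genes lower without tumour 2.

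E2f5 turned to 0.65 with FPKM as deposited, 0.42 with the FPKM total less the genes above 1%, 0.37 without tumour 1 and 0.15 without normal 2, and was -0.49 without tumour 2. Relative to the median of all genes tested it stayed negative under each of the 4 scalings (-0.17 as reported, -0.22 as deposited). E2f3 turned to -0.015 without tumour 1 and was 1.66 without tumour 2. Of the 166 member fits under all alternatives, 121 kept direction and side of the threshold, 26 lost the call, 11 gained it and 8 turned sign. The cause of these changes was not tested. Few fragments limit E2f1, E2f2, E2f3 and E2f5 in normal 1, at 4.2 to 10.4 implied fragments, and E2f2 and E2f5 in normal 2, at 4.6 and 11.1.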

Other observations

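Some list members outside the naming rule were picked after their values were seen. Cdkn2b, which encodes p15INK4b, had 0.694 scaled FPKM in tumour 1 and 8.57 in tumour 2 and was listed at 0 in both normal prostates. It reached 1 FPKM in tumour 2 alone and was not tested. Ccnd1, the D cyclin most often amplified in tumours, had 0.920 and 5.55 in the tumours, against 22.7 and 18.1 in the normal prostates (adjusted p = 0.0597). Cdk6, a partner of the D cyclins, had 12.1 and 2.79, against 0.411 and 0.556 (adjusted p = 0.0803), and Cdk4, its relative, had 178 and 81.6, against 48.0 and 48.5 (adjusted p = 0.0923). Lin54, the DNA-binding subunit of MuvB, had 10.4 and 8.78, against 1.75 and 1.29, a 4.2-fold rise (adjusted p = 0.0357). Cdkn2c, which encodes p18INK4c, had 115 and 48.9, against 16.99 and 7.67, a 6.09-fold rise (adjusted p = 0.0446).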
